A study of Mus musculus with 8 samples.

Results

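The genes Hif1a, Egln3, Slc2a1, Aldoa, Pgk1, Eno1, Ldha, Pdk1, Bnip3 and Vegfa represent the response to low oxygen and glycolysis. They are 10 of the 49315 Ensembl genes counted and were listed by symbol as well-known genes of this response. These genes and the lists used below were chosen with earlier results of these data known. The shares of all genes set beside their counts are therefore description only. All 10 had RPKM (reads per kilobase of exon, scaled to the depth of the library) above 2 in at least 1 sorted library, as 12360 genes did. RNA-seq had been performed on 7 populations sorted from mouse bone marrow, called clusters 1 to 7, and on input bone marrow cells, with 1 library for each. The labels of all 8 libraries give C57BL/6J wild type mice, where the methods of the study name C57BL/6JJcl mice. The age given was post natal 6 weeks and the cells were described as stromal, so that no group differed in genotype, treatment or age. Every sorted population was lineage-negative (CD31, CD45 and Ter119). The further gates, read from the flow plots of the study, were CD24-negative, Sca-1-positive and CD39-positive for cluster 1, negative for Ly-6C, CD24 and CD39 for cluster 2, Ly-6C- and CD24-positive with CD39 and CD54 negative for cluster 3, and CD54-positive with Ly-6C and CD24 negative for cluster 4. Cluster 5 was CD54-positive and negative for CD121b, CD24 and Ly-6C, cluster 6 was CD24-positive and negative for Sca-1 and CD39, and cluster 7 was Sca-1-positive and negative for CD54, CD24 and Ly-6C. The sample labels describe extraction from crushed marrow and not from sorted cells, and how many animals each library came from is not given in the sources used here.

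When oxygen is plentiful, the prolyl hydroxylases (Egln genes) mark the HIF alpha subunits for degradation through the von Hippel-Lindau protein. When it is low, HIF-1 alpha, encoded by Hif1a, persists, pairs with ARNT and binds the short hypoxia response motif near genes of glucose uptake, glycolysis, lactate production, mitochondrial restraint and vessel growth. The marrow holds regions of low oxygen, and growth plate chondrocytes, which live without vessels, are known for their need of HIF-1 alpha, for glycolysis and for Vegfa secretion. The regulation of the HIF-1 alpha protein by oxygen is not visible in RNA.

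Clusters 2 and 6 were the top pair of the 7 sorted libraries for 5 of the 10 genes (Hif1a, Pgk1, Eno1, Pdk1 and Bnip3) by total count, and cluster 5 was low for most. The share of all genes with this top pair was not counted under any scaling, so that the count only describes these genes. Cluster 2 had the highest RPKM of the glycolytic genes Pgk1, Eno1 and Ldha and of Pdk1, and cluster 6 had the highest RPKM of Hif1a, Bnip3 and Vegfa. Slc2a1 was highest in cluster 4, Aldoa in cluster 7 and Egln3 in cluster 3, against 8.95%, 25.3% and 9.85% of all genes. Cluster 4 lay within counting error of cluster 7 for Aldoa and of cluster 3 for Egln3. Cluster 5 had the lowest RPKM of 9 of the 10 genes, against 46.3% of all genes past the threshold, whose median log2 difference from the other libraries was -0.48 there, and cluster 1 had the lowest of Egln3. Clusters 2 and 6 were highest for 4 and 3 of the 10 genes, against 22.8% and 7.1% of all genes. By total count, the spread between the highest and the lowest sorted library was largest for the mitophagy gene Bnip3 (6.76-fold, 95% counting interval 5.86 to 7.82). Pgk1 (4.46-fold, 4.12 to 4.83) and Pdk1 (4.28-fold, 3.63 to 5.09) followed, and Aldoa had the smallest spread (2.09-fold, 2.02 to 2.17). Cluster 5 was the lowest library for each of these genes, and the order of the spreads changed with the scaling. With the fold change computed on RPKM + 1, 10 of 10 genes differed more than 2-fold between the highest and the lowest library, against 70.6% of the 12360 genes, so that most expressed genes passed this threshold too. The median log2 ratio was 1.68 over the 10 genes and 1.26 over all genes. Because each population had 1 library, no difference between populations could be tested. The intervals cover counting error only, and they may be too narrow even for that, since PCR copies of 1 molecule were not told apart. In bulk libraries fewer cells of a type and less RNA per cell cannot be told apart.

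**Figure D1:**
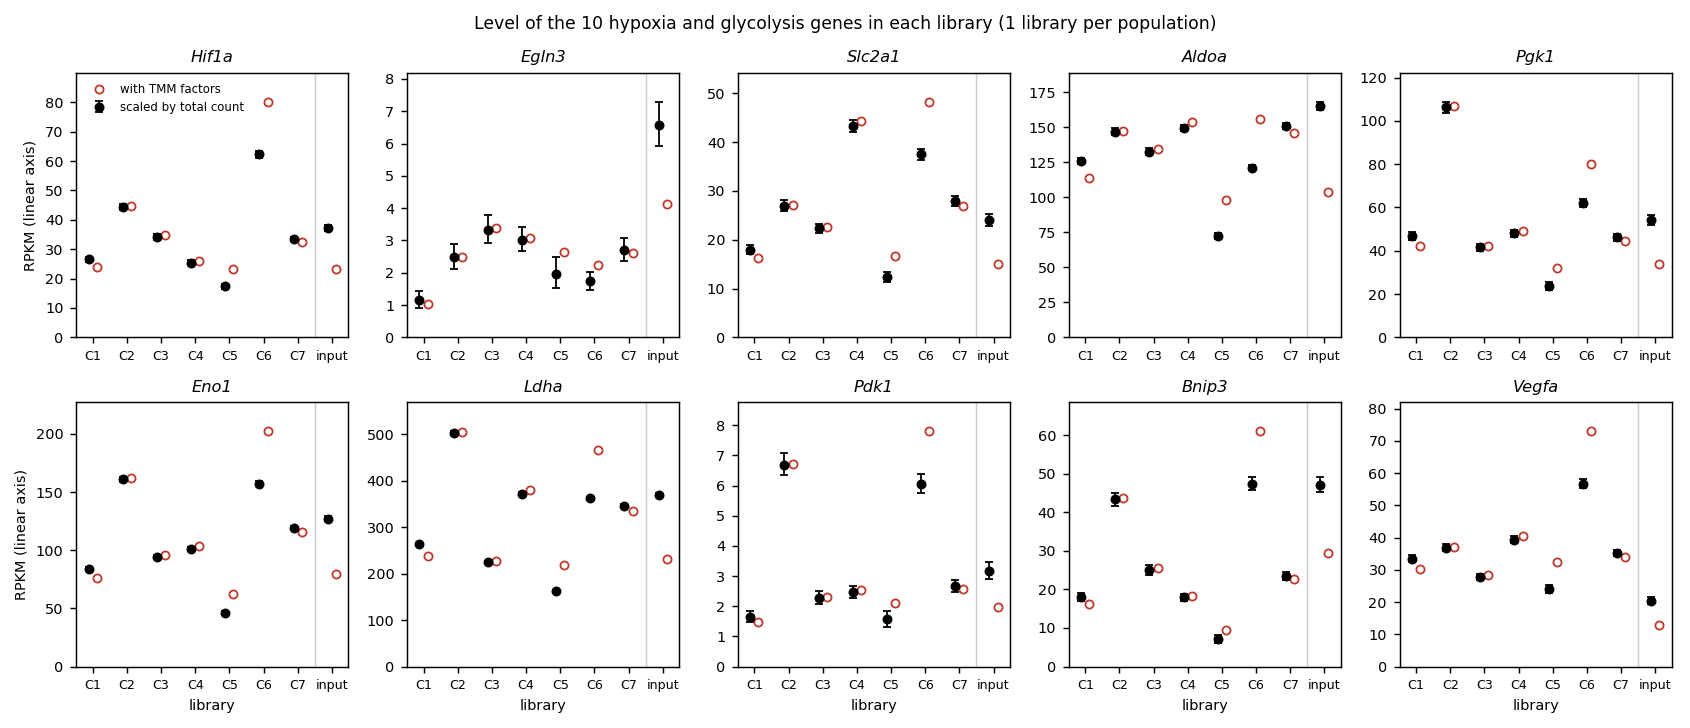
RPKM (linear axis) of each of the 10 genes in the 7 sorted libraries (C1 to C7) and the input, scaled by the total count (black, with 95% Poisson intervals) or with TMM factors (red circles). C2 and C6 stand above the other sorted libraries for Hif1a, Pgk1, Eno1, Pdk1 and Bnip3, and the red circles lift C5 and C6 and lower the input.

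The order depended in part on the scaling. The total counts were 24205863, 25349917, 27102715, 32549319, 12833648, 31669132 and 33238133 in clusters 1 to 7 and 20162876 in the input. In cluster 5, the ribosomal RNA gene Rn18s-rs5, Lars2 and mmu-mir-689-2 took up 34.8% of the counts and haemoglobin genes 5.21%, which leaves fewer counts for all other genes. TMM factors, which set the bulk of the genes equal between libraries, raised every log2 value by 0.435 in cluster 5 and by 0.37 in cluster 6 and changed it by -0.14 in cluster 1 and -0.68 in the input. On the TMM scale cluster 6 was highest for 7 of the 10 genes (Hif1a, Slc2a1, Aldoa, Eno1, Pdk1, Bnip3 and Vegfa), cluster 2 for Pgk1 and Ldha and cluster 3 for Egln3, against 20.9%, 19.9% and 10.1% of all genes, and DESeq2 size factors gave the same highest library for each gene. Cluster 5 was then the lowest for 6 genes with TMM factors, against 26.4% of all genes, and for 4 with DESeq2 size factors, against 22.1%. Clusters 2 and 6 were then the top pair for 6 of the 10 genes with either set of factors, which added Ldha, again with no share of all genes counted. When the total left out mitochondrial, haemoglobin, Lars2, mmu-mir-689-2 and Rn18s-rs5 reads (called the dominant reads here), they were the top pair for the same 5 genes as by total count, cluster 2 was highest for 6 genes (Aldoa, Pgk1, Eno1, Ldha, Pdk1 and Bnip3) and cluster 6 for Hif1a and Vegfa, against 23.2% and 5.52% of all genes, and cluster 5 was lowest for 3, against 9.83%, and highest for Egln3. On the TMM scale 9 of 10 genes differed more than 2-fold, all but Aldoa (1.59-fold), against 56.8% of 12682 genes. The spread in RPKM stayed largest for Bnip3 on that scale (6.44-fold), but Pdk1 was second (5.24-fold). Pgk1 (3.32-fold) then fell below Hif1a (3.43-fold). Without the dominant reads, Pdk1 had the largest spread (4.44-fold, 3.92 to 5.04) and Bnip3 the second, with an overlapping counting interval (3.47 to 4.64).

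Compared with the median of the other 6 sorted libraries, Pgk1, Pdk1 and Bnip3 were more than 2-fold higher in cluster 2, 3 of 10 genes against 8.45% of all genes. Hif1a, Pdk1 and Bnip3 were more than 2-fold higher in cluster 6, 3 of 10 genes against 4.55% of all genes. The TMM scale left the same 3 genes in cluster 2, against 7.12% of all genes, and added Eno1 and Vegfa in cluster 6, which made 5 of 10 genes against 7.21%. Without the cluster 5 library, Bnip3 lost its call in cluster 2, which left 2 genes against 8.58%, and Hif1a and Bnip3 lost theirs in cluster 6, which left Pdk1 against 4.25%. Without the dominant reads, the 3 genes of cluster 2 stayed past 2-fold, against 9.15%, and cluster 6 had Bnip3 alone, against 3.58%. In cluster 5, Slc2a1, Eno1, Ldha and Bnip3 were more than 2-fold lower, 4 of 10 genes against 13.1% of all genes, whereas on the TMM scale only Bnip3 was, 1 of 10 against 4.34%. None of the 10 genes was more than 2-fold higher or lower in clusters 1, 3, 4 and 7, where 5.53%, 3.76%, 4.72% and 6.76% of all genes were higher and 1.58%, 3.09%, 1.38% and 2.55% were lower by total count. Nor was any of them lower in cluster 2 or 6 or higher in cluster 5, where 4.54%, 10.4% and 3.92% of all genes were. The median log2 difference of the 10 genes was 0.64 in cluster 2 and 0.64 in cluster 6, against 0.01 and -0.25 over all genes, and on the TMM scale it was 0.65 and 0.98, against -0.02 and 0.03. In cluster 1 it was -0.39 for the 10 genes and 0.24 for all genes, and on the TMM scale it was -0.51 and 0.02.

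**Figure D2:**
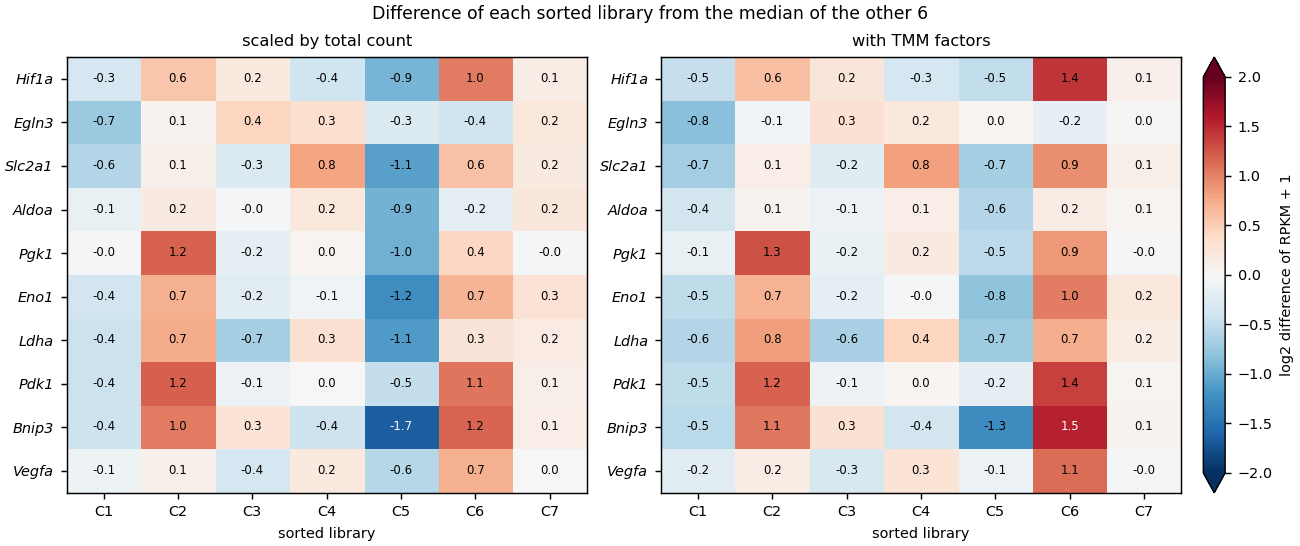
Log2 difference of RPKM + 1 between each sorted library and the median of the other 6, for the 10 genes, scaled by total count (left) or with TMM factors (right). Red cells are higher and blue cells lower, each with its value printed. C2 and C6 are above 0 for most genes and C1 is below 0 for all 10, while the blue of C5 is paler with TMM factors.

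The core of the hypoxia response motif is ACGTG or GCGTG, read as CACGT or CACGC on the other strand, and both readings of the first overlap in CACGTG. It was searched in the 250 bases before each start site in the RefSeq promoter table (GRCm38.p6), which held 17 entries for the 10 genes. ACGTG was found in 9 and GCGTG in 8 of the 17 entries, against 16.6% and 28.2% of 32851 promoters in the table, and 1 or the other in 14, against 38.6%. Every gene had at least 1 entry with a match, but Vegfa only in its second entry, which starts inside the gene. The share of all genes with such an entry was not counted. A match is only a run of letters and no evidence of binding, and genes with several entries, which overlap for Aldoa and Eno1, had more chances of a match. The promoters printed here belong to 5 genes with their highest level in cluster 2 or cluster 6 (Ldha, Pgk1, Pdk1, Bnip3 and Vegfa) and to Egln3, which was highest in cluster 3 by total count. They are printed 5' to 3' on the strand of the gene with the motif in capitals. They are Ldha (chr7:46845554-46845803, plus strand), Pgk1 (chrX:106186850-106187099, plus strand), Pdk1 (chr2:71872974-71873223, plus strand), Bnip3 (chr7:138909507-138909756, minus strand), Egln3 (chr12:54203875-54204124, minus strand) and Vegfa (chr17:46032378-46032627, minus strand).
Ldha: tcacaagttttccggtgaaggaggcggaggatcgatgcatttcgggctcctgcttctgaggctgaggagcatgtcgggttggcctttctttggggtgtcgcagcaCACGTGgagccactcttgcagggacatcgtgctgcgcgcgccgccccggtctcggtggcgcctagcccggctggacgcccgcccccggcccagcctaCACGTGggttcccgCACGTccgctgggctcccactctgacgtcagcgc
Pgk1: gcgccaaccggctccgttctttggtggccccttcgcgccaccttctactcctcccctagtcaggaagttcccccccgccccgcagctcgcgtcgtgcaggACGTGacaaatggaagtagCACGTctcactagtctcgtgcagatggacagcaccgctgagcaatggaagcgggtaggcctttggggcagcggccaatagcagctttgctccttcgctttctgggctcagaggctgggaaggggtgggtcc
Pdk1: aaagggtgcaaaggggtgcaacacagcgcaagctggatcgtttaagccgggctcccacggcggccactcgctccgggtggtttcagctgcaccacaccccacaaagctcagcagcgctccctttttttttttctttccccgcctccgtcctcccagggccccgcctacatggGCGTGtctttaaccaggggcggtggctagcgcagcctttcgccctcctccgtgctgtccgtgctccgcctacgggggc
Bnip3: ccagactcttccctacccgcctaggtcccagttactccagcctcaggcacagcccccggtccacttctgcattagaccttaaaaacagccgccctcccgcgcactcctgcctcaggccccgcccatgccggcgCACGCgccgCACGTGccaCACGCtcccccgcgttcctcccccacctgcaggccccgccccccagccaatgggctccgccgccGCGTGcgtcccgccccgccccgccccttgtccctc
Egln3: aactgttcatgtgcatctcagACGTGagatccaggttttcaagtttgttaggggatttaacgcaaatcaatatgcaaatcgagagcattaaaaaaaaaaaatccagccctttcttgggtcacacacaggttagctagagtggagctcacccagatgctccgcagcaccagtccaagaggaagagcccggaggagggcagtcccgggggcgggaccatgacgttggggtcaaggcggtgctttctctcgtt
Vegfa: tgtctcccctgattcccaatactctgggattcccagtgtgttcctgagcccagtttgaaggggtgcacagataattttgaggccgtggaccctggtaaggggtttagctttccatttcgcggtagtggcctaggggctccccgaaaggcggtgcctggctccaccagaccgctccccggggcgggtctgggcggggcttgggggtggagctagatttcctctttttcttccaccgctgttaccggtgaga

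The Ldha window held 5 matches to ACGTG in 3 runs, because CACGTG occurs in it and reads the same on both strands. The Pgk1 window held 2 matches to ACGTG, the Pdk1 window 1 match to GCGTG and the Bnip3 window 2 matches to ACGTG and 3 to GCGTG. The Egln3 window held 1 match to ACGTG, and the first Vegfa window held neither. The second Vegfa entry, which starts inside the gene, had 1 match to each.

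Hif1a (chr12:73901375-73947530, GRCm38), the oxygen-regulated subunit of HIF-1, was measured at RPKM 26.6, 44.3, 34.1, 25.5, 17.3, 62.3 and 33.5 in clusters 1 to 7 and 37.2 in the input. Cluster 6 was the highest and cluster 2 the second under every scaling, and the levels of clusters 3 and 7 differed by less than counting error by total count alone. The ratio of cluster 2 to cluster 6 was 0.712 (95% counting interval 0.691 to 0.734), and 0.555 on the TMM scale. Gm15283, a gene on the opposite strand, shares 1136 exon bases with Hif1a and had 13 to 79 counts, against 1310 to 11627 for Hif1a. The strandedness of the counts is not given in the sources used here, so that reads of both genes cannot be told apart there.

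Egln3 (chr12:54178981-54203860), a prolyl hydroxylase that itself responds to HIF, had few counts, 67 to 261 in the sorted libraries. Its RPKM was 1.15, 2.47, 3.33, 3.01, 1.96, 1.73 and 2.70 in clusters 1 to 7 and 6.58 in the input. Most neighbours in this order could not be told apart by counting error, but cluster 3 was 2.90-fold above cluster 1 (2.22 to 3.81). Clusters 2 and 6, the top pair for Hif1a, were the fourth and the sixth for Egln3, and the ratio of cluster 2 to cluster 6 was 1.43 (1.14 to 1.80) and 1.11 (0.887 to 1.40) on the TMM scale. Across the 7 sorted libraries its log2(RPKM + 1) had r between -0.17 and 0.38 with the other members.

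Slc2a1 (chr4:119108711-119137983), the glucose transporter GLUT1, had RPKM 18.0, 27.0, 22.3, 43.3, 12.4, 37.5 and 28.0 in clusters 1 to 7 and 24.0 in the input. It was the member that cluster 4 led, at 1.15-fold cluster 6 (1.11 to 1.20), but with TMM factors cluster 6 came first and the ratio turned to 0.918 (0.880 to 0.956). Cluster 4, which stood at 2.41-fold cluster 1 for Slc2a1 (2.27 to 2.55), was 0.994-fold cluster 1 for Bnip3 (0.914 to 1.08), and 1.13-fold with TMM factors (1.04 to 1.22). A gene on the opposite strand, Gm12868, overlaps Slc2a1 and had at most 12 counts in any library.

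The glycolytic enzymes differed among themselves. Aldoa (aldolase A, chr7:126795234-126809108) was the flattest, at RPKM 126, 147, 133, 150, 72.3, 121 and 151 in clusters 1 to 7 and 165 in the input. Apart from cluster 5, its sorted libraries lay between 121 and 151.

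Pgk1 (phosphoglycerate kinase, the first enzyme of glycolysis that yields ATP, chrX:106187100-106203699) had RPKM 46.7, 106, 41.5, 48.1, 23.8, 62.2 and 46.3 in clusters 1 to 7 and 54.2 in the input. Cluster 2 stood alone at the top, at 1.71-fold cluster 6 (1.64 to 1.78) by total count and 1.33-fold on the TMM scale, while clusters 1, 4 and 7 differed little.

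Eno1 (enolase 1, chr4:150236721-150248879) was at RPKM 84.2, 161, 94.4, 101, 45.8, 157 and 119 in clusters 1 to 7 and 127 in the input. Clusters 2 and 6 were close and above the rest, and their ratio turned from 1.02 (1.00 to 1.04) by total count to 0.798 (0.784 to 0.812) on the TMM scale. Ldha (lactate dehydrogenase A, which reduces pyruvate to lactate, chr7:46841475-46855627) was the most abundant member per exon length, at RPKM 263, 502, 224, 371, 161, 362 and 346 in clusters 1 to 7 and 368 in the input. Cluster 2 exceeded cluster 6 by 1.39-fold (1.37 to 1.41), and by 1.08-fold (1.07 to 1.10) on the TMM scale.

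Pdk1 (chr2:71873224-71903858), a kinase that switches off pyruvate dehydrogenase and so keeps pyruvate out of the mitochondrion, had RPKM 1.65, 6.69, 2.28, 2.46, 1.56, 6.06 and 2.65 in clusters 1 to 7 and 3.17 in the input. It divided the sorted libraries most cleanly, since clusters 2 and 6 were at 6.06 or more and the other 5 at no more than 2.65. This did not depend on the scaling. Among the genes that passed the expression threshold, Pdk1 ranked at the percentile 57.6 in cluster 2 and 60.2 in cluster 6, and between 11.2 and 27.1 in the other sorted libraries. Of the summed counts per exon length of Pdk1, Pdk2, Pdk3 and Pdk4, Pdk1 made up 26.4% in cluster 2 and 17.6% in cluster 6 and between 8.77% and 10.3% in the other sorted libraries. Pdha1, a subunit of the enzyme that Pdk1 inhibits, was at RPKM 29.4, 18.7, 33.0, 23.7, 13.1, 21.0 and 33.3 in clusters 1 to 7, lowest in cluster 5, and on the TMM scale cluster 6 (27.1) was above clusters 1, 2, 4 and 5.

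Bnip3 (chr7:138890836-138909519), a mitochondrial outer membrane protein that promotes mitophagy, had RPKM 18.0, 43.3, 25.1, 17.9, 7.02, 47.4 and 23.5 in clusters 1 to 7 and 47.1 in the input. Clusters 6 and 2 were the top pair and cluster 5 was the lowest under every scaling. The ratio of cluster 2 to cluster 6 was 0.914 (0.868 to 0.963), 0.713 (0.676 to 0.751) on the TMM scale and 1.02 (0.971 to 1.08) without the dominant reads, where the order turned. Its rank within the library moved from the percentile 69.7 in cluster 5 to 90.7 in cluster 2 and 93.5 in cluster 6. The related mitophagy gene Bnip3l had another order, with its highest RPKM, 38.8, in cluster 7, and 33.0 and 22.1 in clusters 2 and 6. The annotated antisense gene that overlaps Bnip3 had 0 counts in every library.

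Vegfa (chr17:46016993-46032369), the main growth factor for blood vessels, had RPKM 33.5, 36.8, 27.9, 39.4, 24.0, 56.8 and 35.2 in clusters 1 to 7 and 20.5 in the input. Cluster 6 was alone at the top and the other sorted libraries were within 24.0 to 39.4. Cluster 2, which had the highest Pgk1, Eno1 and Ldha by total count, was below clusters 6 and 4 for Vegfa by total count, but above cluster 4 without the dominant reads (cluster 4 at 0.954-fold, 0.916 to 0.994). Its ratio to cluster 6 was 0.649 (0.624 to 0.674) and 0.506 (0.487 to 0.526) on the TMM scale, and its ratio to cluster 7 was 1.05 (1.00 to 1.09). On the TMM scale the lowest library was cluster 3 and not cluster 5. Vegfa ranked at the percentile 94.7 in cluster 6, between 86.5 and 89.8 in the other sorted libraries and 80.0 in the input.

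Clusters 2 and 6 were thus not alike in every gene. By total count, with TMM factors, with DESeq2 size factors and without the dominant reads, Pgk1 and Ldha were higher in cluster 2 and Hif1a, Slc2a1 and Vegfa were higher in cluster 6, each with a counting interval of the ratio that did not include 1. Egln3 was higher in cluster 2 by total count and without the dominant reads, but not beyond counting error with TMM factors or DESeq2 size factors. Aldoa, Eno1, Pdk1 and Bnip3 changed the higher library with the scaling. Whether any of these differences exceeds the spread between replicate sorts could not be measured.

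In the 7 sorted libraries, 34 of the 45 pairs of members had r above 0.5 between their log2(RPKM + 1), against 31.0% of the pairs of all genes past the threshold, with a median r of 0.74 and the highest values for Eno1 with Bnip3 (0.97) and Hif1a with Bnip3 (0.97). These correlations rest on 7 points that share the scaling of each library, and cluster 5 is low for nearly every member. Without cluster 5, 22 of the 45 pairs had r above 0.5, against 26.5% of all pairs, and without the dominant reads 23 did, against 23.1%. With TMM factors it was 36 pairs, against 18.6%. Of all genes with more than 2-fold difference and 50 counts in the highest library, Nsun2, an RNA methyltransferase (r = 0.99), Paip2 (0.99), Ltv1 (0.99), Efhd2 (0.98) and Arf2 (0.98) were closest to the mean profile of Aldoa, Pgk1, Eno1 and Ldha among 7807 genes by total count. The names changed with the scaling, since with TMM factors they were Efhd2 (0.99), the glycolytic mutase Pgam1 (0.98), Xrcc3 (0.98), Eif1a (0.98) and Tmem51 (0.97). For Vegfa they were Cpm (0.97), Emilin1 (0.96), the fatty acid synthase Fasn (0.96), Slc44a2 (0.96) and Chsy3 (0.96) by total count, and Prkg1 (0.99), Mertk (0.98), Rgp1 (0.97), Sim2 (0.97) and Chsy3 (0.96) with TMM factors. On the TMM scale Prkg1 (2.94) and Sim2 (2.54) were above RPKM 2 in cluster 6 alone, and Xrcc3 in clusters 2 and 6 alone (2.22 and 2.66). These 3 genes passed the threshold only through libraries where the profile was high, so that part of their likeness was fixed beforehand. Chsy3 was the gene named for Vegfa under both scalings, and Efhd2 the one for the glycolytic profile.

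The other enzymes of glycolysis did not move as a block. Of 19 listed genes, 16 passed the expression threshold, and 15 of them differed more than 2-fold between the highest and the lowest library, against 70.6% of all genes (14 on the TMM scale, against 56.8%). The median log2 difference of these 16 genes from the other 6 libraries was 0.17 in cluster 2, 0.45 in cluster 6 and -0.68 in cluster 5, and on the TMM scale 0.06, 0.79 and -0.27. Tpi1 (triose phosphate isomerase), which acts upstream of Gapdh and Pgk1 in the pathway, had RPKM 77.5, 175, 74.9, 104, 41.9, 110 and 84.1 in clusters 1 to 7, with the same library at the top as Pgk1 under both scalings. The mutase Pgam2, known from muscle, was highest in cluster 2 at 18.5 and lowest in cluster 4 at 0.731, whereas the general mutase Pgam1 was at 60.0 and 59.4 in clusters 2 and 6 and lowest in cluster 5 at 18.3. Gapdh was flatter, between 91.6 in cluster 5 and 199 in cluster 4 by total count (cluster 6 was highest with TMM factors), and Pkm (pyruvate kinase M) was highest in cluster 6 at 209 and lowest in cluster 5 at 70.8.

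Other enzymes were highest elsewhere. Hk2, the inducible hexokinase, was at RPKM 63.4 in cluster 1 and only 39.2 in cluster 2 and 21.4 in cluster 6, so that its top library was not one where most members were high. Gpi1 was highest in cluster 7 at 53.8, and Ldhb, the lactate dehydrogenase subunit favoured by oxidative tissues, was highest in cluster 4 at 22.8. Hk3, a hexokinase of myeloid cells, was highest in cluster 7 at 34.6, followed by cluster 6 at 19.3, and lowest in cluster 3 at 5.46. The glucose transporter Slc2a3 (25.6) and the lactate exporter Slc16a3 (41.8) were also highest in cluster 7, followed by cluster 6 for Slc16a3 (28.7) and, by total count but not with TMM factors, by cluster 4 for Slc2a3 (8.92). All 5 expressed transporter genes differed more than 2-fold by total count, against 70.6% of all genes, and 4 did on the TMM scale, against 56.8%. By total count, cluster 7 was more than 2-fold above the other 6 for 3 of them, against 6.76% of all genes, and cluster 2 for 0, against 8.45%. The general lactate transporter Slc16a1, highest on average in this list, was at 33.3 in cluster 4 and 15.8 in cluster 5, and the vesicular glucose transporter Slc2a8 was at 7.90 in cluster 3 and 0.996 in cluster 5.

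**Figure D3:**
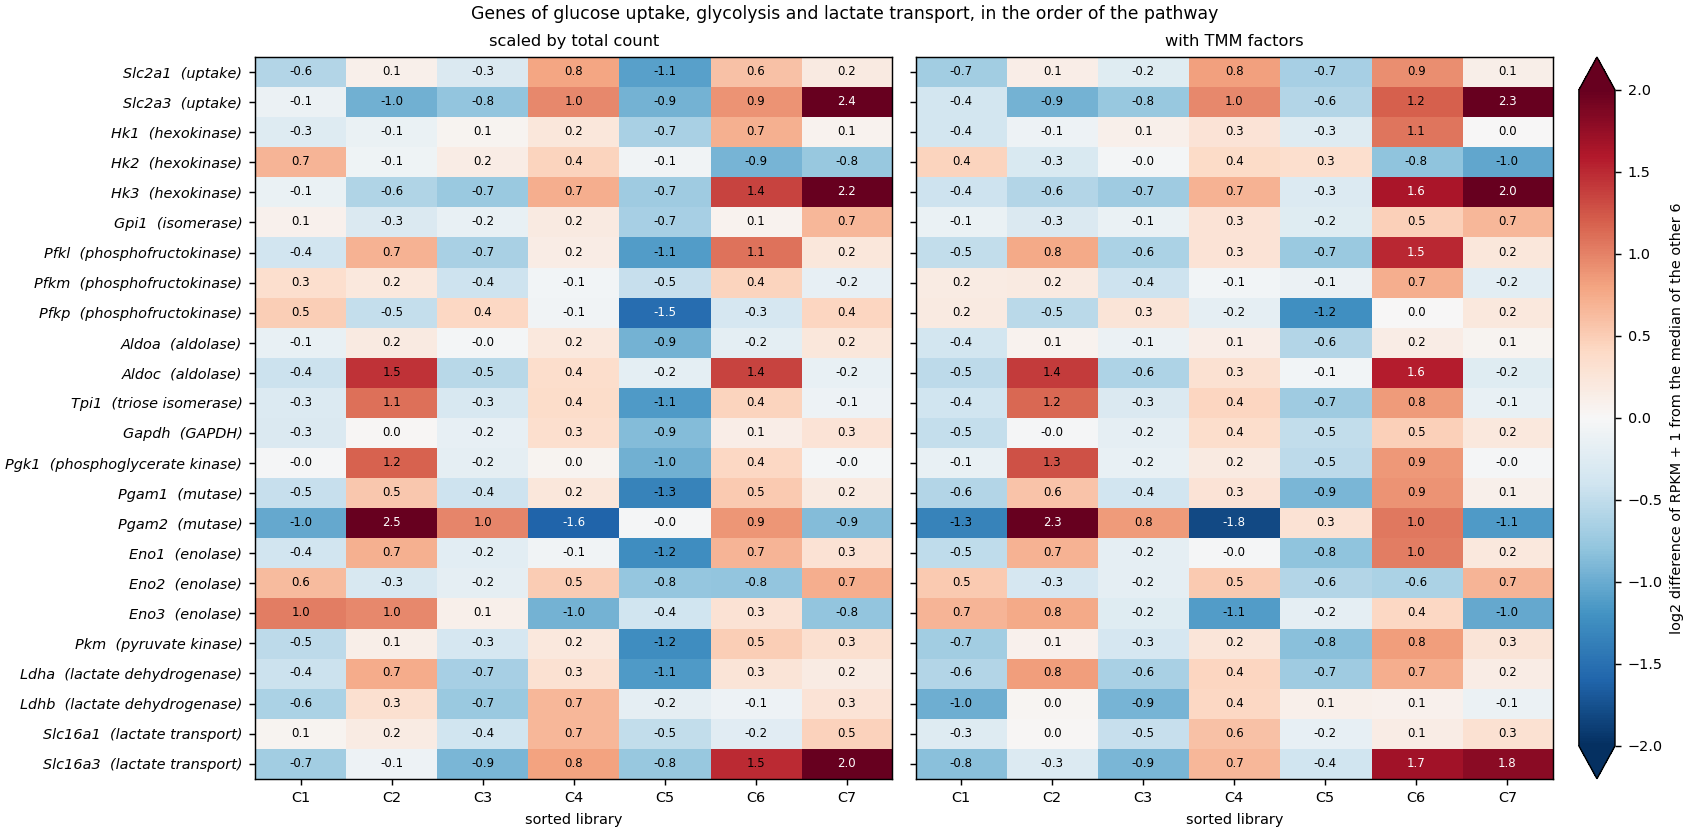
Log2 difference of RPKM + 1 from the median of the other 6 sorted libraries for genes of glucose uptake, glycolysis and lactate transport, from top to bottom in the order of the pathway, by total count (left) and with TMM factors (right). Each cell prints its value, and colours are capped at -2 and 2. C2 is red at Aldoc, Tpi1, Pgk1, Pgam2 and Ldha but blue at Slc2a3 and Hk3, and C7 is darkest at Slc2a3, Hk3 and Slc16a3.

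The genes that govern pyruvate entry into mitochondria form the next list. Of its 11 expressed genes, 7 differed more than 2-fold by total count, against 70.6% of all genes, and 3 on the TMM scale, against 56.8%, which were Pdk3, Pdk4 and Pdp1. Pdk4, a kinase known from fasting and fat oxidation, was at RPKM 1.81, 2.63, 7.66, 4.59, 3.33, 8.05 and 2.82 in clusters 1 to 7, so that it did not share the level of Pdk1 in cluster 2. Pdk2 ranged from 2.24 in cluster 5 to 6.66 in cluster 7 and was at 3.59 in cluster 2. Pdhb, the most abundant gene of the list, was between 45.6 and 59.5 in all sorted libraries but cluster 5 (30.4). Of 20 nuclear genes of oxidative phosphorylation, 12 differed more than 2-fold by total count (60.0%, against 70.6% of all genes) and 7 on the TMM scale (35.0%, against 56.8%). By total count, cluster 2 was the highest for 8 of the 20 and cluster 6 for 0, against 22.8% and 7.1% of all genes, whereas with TMM factors it was 9 and 4, against 19.9% and 20.9%. In cluster 2, 5 of the 20 were more than 2-fold higher than the other 6 libraries by total count, against 8.45% of all genes, but 1 with TMM factors, against 7.12%, and their median log2 difference was 0.23 and 0.17. Cox6c was at 91.0 in cluster 2 and 29.7 in cluster 6, Ndufa1 at 666 and 276 and Ndufa4 at 161 and 58.6. Cluster 6 had the lowest Cox6c and Ndufa4 by total count, though not with TMM factors.

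Of 8 expressed genes of oxygen sensing, HIF subunits and their regulators, 5 differed more than 2-fold, against 70.6% of all genes, and none was more than 2-fold from the median of the other 6 in any library by total count. On the TMM scale 5 of 9 differed more than 2-fold, against 56.8%, and Cited2 was more than 2-fold lower in cluster 2. Egln1, the main oxygen sensor, was at RPKM 13.6, 11.4, 8.37, 7.09, 3.99, 3.51 and 6.04 in clusters 1 to 7 and 2.82 in the input. Cluster 6 was thus the highest for Hif1a and the lowest for Egln1, under total count and TMM scaling alike. Hif1an, the asparaginyl hydroxylase that blocks HIF activity, was highest in cluster 6 at 4.26 and lowest in cluster 5 at 1.11, and Vhl ranged only from 6.94 to 12.2. Siah2 was highest in cluster 4 at 35.7 and lowest in cluster 5 at 15.7. Cited2, which competes with HIF for its coactivator, was highest in cluster 3 at 33.4 by total count and lowest in cluster 2 at 15.4. Epas1, which encodes HIF-2 alpha, was highest in cluster 4 at 5.51 by total count and lowest in cluster 7 at 2.56.

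Of 27 other hypoxia-inducible genes, 26 passed the threshold and 22 of these differed more than 2-fold (21 on the TMM scale), with 84.6% by total count against 70.6% of all genes. In cluster 2, 8 of the 26 were more than 2-fold higher than the other 6 libraries, against 8.45% of all genes, and 3 lower, against 4.54%. In cluster 6, 7 were higher, against 4.55%, and 1 lower, against 10.4%. On the TMM scale 8 were higher and 4 lower in cluster 2, against 7.12% and 5.0%, and 8 higher and 0 lower in cluster 6, against 7.21% and 6.83%. The genes past 2-fold in both were Car12, a carbonic anhydrase at RPKM 12.4 in cluster 2 and 23.7 in cluster 6 but 0.283 in cluster 1, Plod2, a collagen lysyl hydroxylase (127 and 130, against 24.1 in cluster 1), P4ha2, Stc2 and Hilpda, a lipid droplet protein (129 and 72.0, against 20.8 in cluster 3). Higd1a, a mitochondrial protein, was at 132 in cluster 2, Fam162a at 293, and Ddit4 completed the 8 genes, while Lox and Pfkfb3 were past 2-fold in cluster 6. Ndrg1, Adm and Angptl4 were more than 2-fold lower in cluster 2, and Ndrg1 also in cluster 6 by total count. Angptl4 was at 85.9 in cluster 4 and 64.1 in cluster 7 but 9.82 in cluster 2 and 12.2 in cluster 6, and Ndrg1 was at 59.7 in cluster 3 but 15.3 in cluster 2 and 17.3 in cluster 6. Adm (adrenomedullin) was at 19.96 in cluster 4 and 6.29 in cluster 2. Bhlhe40, the most abundant gene of the list, was at 224 in cluster 3, 93.9 in cluster 2 and 171 in cluster 6, past 2-fold in none of them, and Car9 did not pass the threshold, at no more than 0.588 in any sorted library. The hypoxia-inducible genes therefore did not rank the libraries in 1 order.

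**Figure D4:**
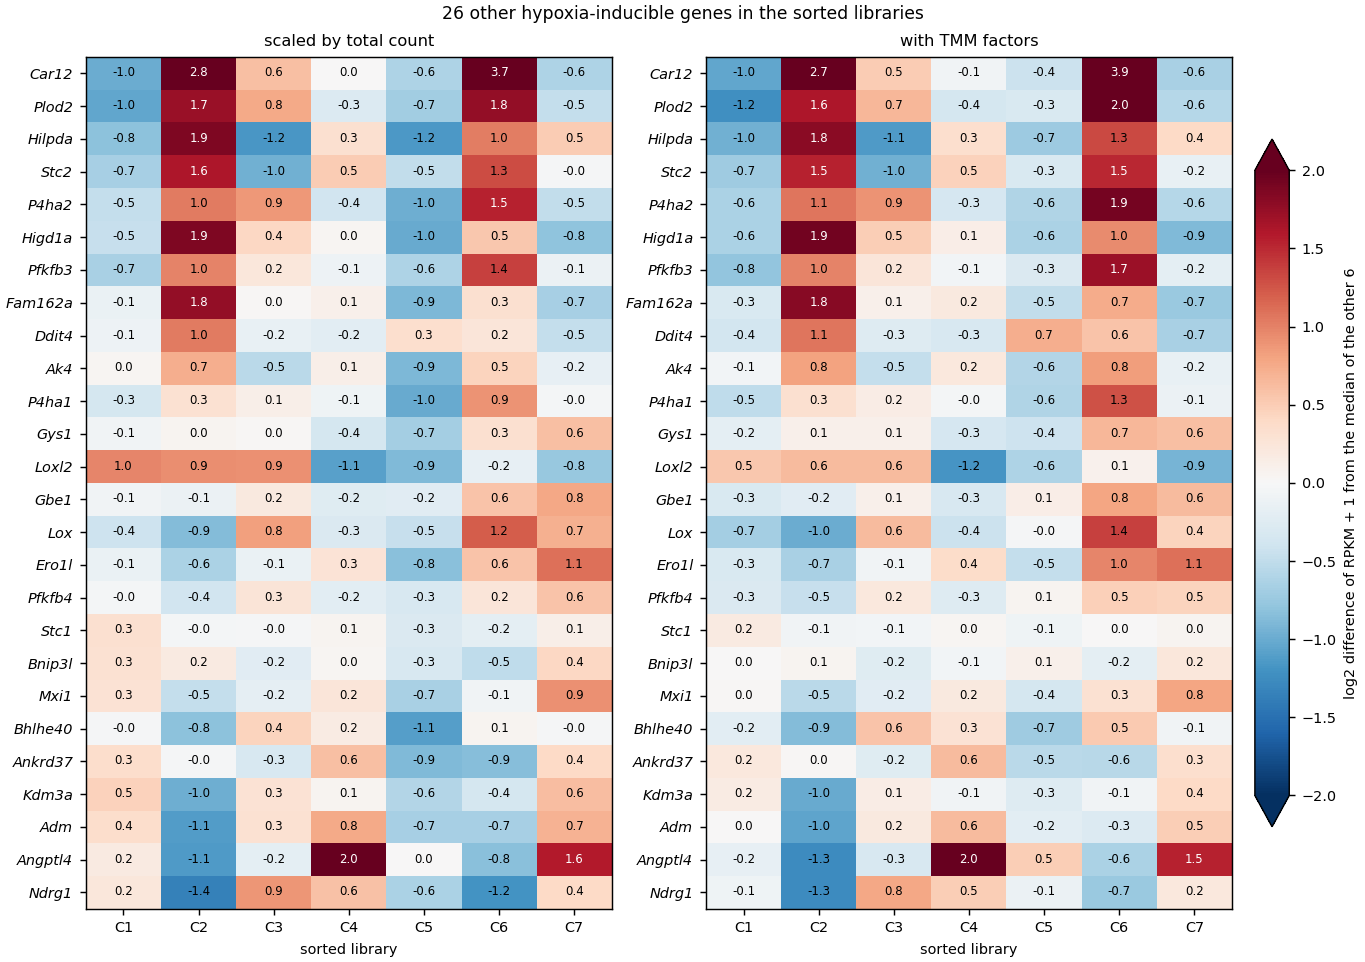
Log2 difference of RPKM + 1 from the median of the other 6 sorted libraries for the 26 other hypoxia-inducible genes that passed the threshold, by total count (left) and with TMM factors (right), sorted by their mean in C2 and C6. Each cell prints its value, and colours are capped at -2 and 2. Car12 and Plod2 at the top are red in C2 and C6, and Angptl4 and Ndrg1 at the bottom are blue there and red in C4.

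The other members of the VEGF family did not follow Vegfa. Vegfc, the lymphatic growth factor, was highest in cluster 1 at RPKM 9.82 and lowest in cluster 6 at 0.425, the library with the most Vegfa. Pgf (placental growth factor), the most abundant of the list, was highest in cluster 3 at 15.4 by total count and at 4.49 and 4.81 in clusters 2 and 6. The coreceptor Nrp1 was highest in cluster 4 at 14.9 and lowest in cluster 6 at 3.06, whereas Nrp2 was highest in cluster 6 at 16.8 and lowest in cluster 1 at 3.29. The receptors Flt1, Kdr and Flt4 did not pass the threshold in any sorted library, so that 6 of 9 listed genes were compared, of which 6 differed more than 2-fold by total count, against 70.6% of all genes, and 5 on the TMM scale, against 56.8%.

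Ratios of related genes within 1 library do not depend on the scaling between libraries. Bnip3 exceeded Bnip3l per exon length in cluster 6 (2.15-fold, 2.04 to 2.26) and cluster 2 (1.31-fold, 1.24 to 1.38), and was below it in the other 5 sorted libraries, down to 0.277-fold in cluster 5 (0.238 to 0.321). The ratio of Hif1a to Epas1 was 6.25, 12.2, 12.7, 4.62, 3.65, 23.0 and 13.1 in clusters 1 to 7, so that cluster 6 was highest and clusters 4 and 5 lowest. The ratio of Slc2a1 to Slc2a3 was highest in cluster 2 at 9.40 (8.55 to 10.3), lowest in cluster 7 at 1.09 (1.05 to 1.14) and 4.41 in cluster 6. Ldha exceeded Ldhb in every library, by 27.2-, 28.2-, 25.2-, 16.3-, 11.7-, 25.4- and 20.2-fold in clusters 1 to 7, so that this ratio did not single out clusters 2 and 6. Aldoc, the minor aldolase, had 244 counts in cluster 2, 279 in cluster 6 and at most 90 in the other sorted libraries, and Aldoa exceeded it 49.7-fold in cluster 2 and 44.9-fold in cluster 6, against 168-fold or more in the other sorted libraries.

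**Figure D5:**
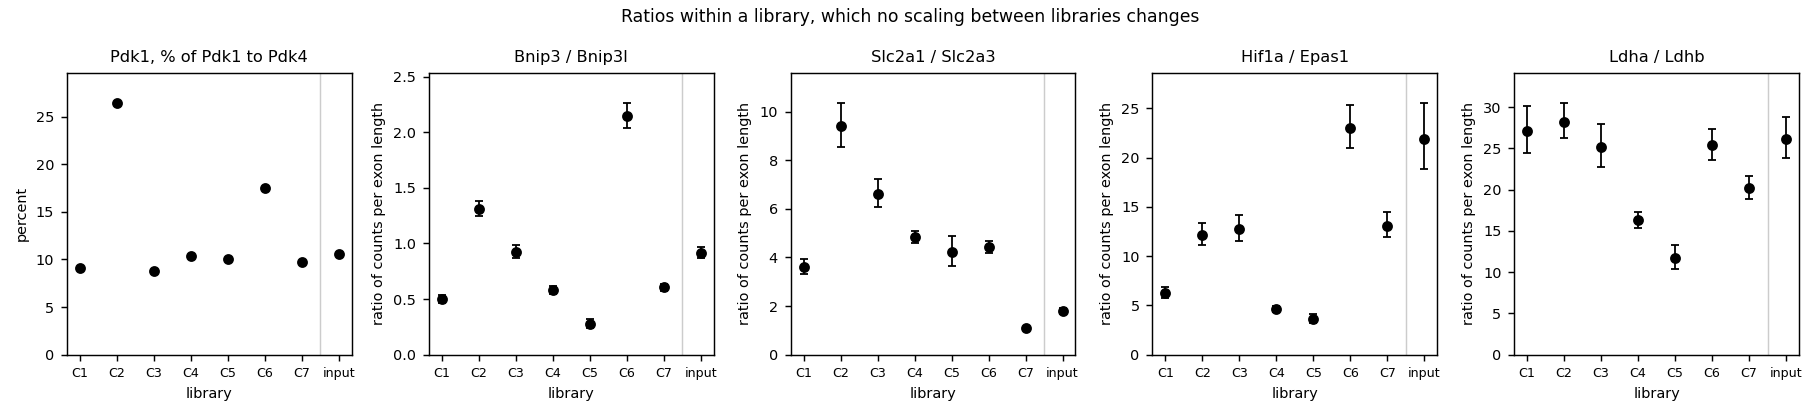
Ratios of counts per exon length within each library, on linear axes, with exact binomial 95% intervals for ratios of 2 genes and no interval for the Pdk1 share in percent. C2 and C6 stand apart from the other libraries for the Pdk1 share and Bnip3 to Bnip3l, C2 leads for Slc2a1 to Slc2a3 and C6 for Hif1a to Epas1.

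Against the input, the result depended on the scaling, which moved the input by -0.68 on the log2 scale. By total count, Vegfa in cluster 6 was more than 2-fold higher than in the input, 1 of 10 genes against 3.82% of all genes, and none of the 10 was higher in clusters 1, 2, 3, 4, 5 and 7, against 5.53%, 7.06%, 4.33%, 4.68%, 3.21% and 3.43%. In cluster 5, 7 of 10 were lower, against 61.0% of all genes. In clusters 1, 2, 3, 4, 6 and 7, 2, 1, 0, 1, 1 and 1 were lower (Egln3 and Bnip3 in cluster 1, Bnip3 in cluster 4 and Egln3 in clusters 2, 6 and 7), against 41.6%, 47.9%, 46.5%, 45.5%, 53.6% and 39.4%. On the TMM scale, 8 of 10 genes were higher in cluster 6 (all but Egln3 and Aldoa), against 14.4% of all genes, and 5 of 10 in cluster 2 (Pgk1, Eno1, Ldha, Pdk1 and Vegfa), against 16.7%. Vegfa was more than 2-fold higher than in the input in all 7 sorted libraries on that scale, and in clusters 1, 3, 4, 5 and 7 there were 1, 1, 2, 1 and 1 such members (Slc2a1 besides Vegfa in cluster 4), against 13.4%, 13.8%, 14.3%, 12.5% and 10.1% of all genes. By total count Vegfa was also higher in every sorted library than in the input, by 0.22 on the log2 scale in cluster 5 and 1.43 in cluster 6. All 7 comparisons share the 1 input library. Egln3 had its highest level of all 8 libraries in the input under both scalings.

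Markers of cell types also differed between the libraries, and not all in the order of the 10 genes. The 7 chondrocyte markers, all above RPKM 2 in clusters 2 and 6 and none at 0, summed to RPKM 606, 12792, 1122, 5552, 643, 15488 and 1616 in clusters 1 to 7 and 979 in the input, with Col2a1 the most abundant of them in clusters 2, 4 and 6 (8611, 3046 and 10541). The 2 libraries with the highest sums were those with the highest Hif1a, Pgk1, Eno1, Pdk1 and Bnip3. Cluster 4, the next by this sum, was by total count the highest for Slc2a1 and the second for Egln3, Aldoa, Ldha and Vegfa. It had less Hif1a and Bnip3 than 5 of the other sorted libraries by total count. For Bnip3 its ratio to cluster 1 was within counting error (0.994, 0.914 to 1.08). With TMM factors cluster 4 was above cluster 1 for both (1.09-fold for Hif1a and 1.13-fold for Bnip3). The 9 osteoblast markers summed to 880, 7639, 25986, 2475, 9592, 25514 and 2809 and to 977 in the input, with Bglap the most abundant in cluster 6 (11032) and cluster 3 (14020) and none at 0. In cluster 3 most of this sum came from Bglap and Bglap2 (14020 and 9949), and the other 7 osteoblast markers were higher in cluster 6. The 10 stromal markers summed to 10689, 6025, 15048, 7220, 7854, 22370 and 8276, of which Col1a1 and Col1a2 made up 15952 and 6087 in cluster 6. Pdgfrb, Cxcl12, Kitl, Col3a1, Ly6a and Thy1 were lower in cluster 6 than in any other sorted library, and Pdgfra was at 4.37 in cluster 2 and 7.44 in cluster 6, at 7.51 in cluster 5 and at 18.0 to 28.1 in clusters 1, 3, 4 and 7.

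Blood cell markers were detected in all sorted libraries although the gates were lineage-negative. The 8 neutrophil markers, all above RPKM 2 in every library and none at 0, summed to 14201, 16029, 10893, 17239, 25696, 15298 and 29151 in clusters 1 to 7 and 42817 in the input, with S100a9 the most abundant in each. Cluster 7, the library with the most Hk3, Slc2a3 and Slc16a3, had the highest Mpo (394), Elane (478), Ltf (1181), Ngp (6416) and Lcn2 (446) of the sorted libraries, but of the 10 members only Aldoa was at its highest there, and by total count alone. S100a8, S100a9 and Camp were highest in cluster 5 (7878, 11033 and 3090, against 7151, 10329 and 2757 in cluster 7). The 9 erythroid markers matched of 10 summed to 14569, 13329, 7337, 2261, 68535, 1596 and 7417, with Hba-a1 the most abundant in cluster 5 (30376) and none at 0, and cluster 5 was the library with the lowest members by total count. The 7 macrophage markers summed to 81.8 in cluster 7 and to between 16.6 and 35.2 in the other sorted libraries, with Cd68 highest in cluster 7 (32.4). The 7 B cell markers summed to between 42.8 and 138, highest in cluster 7, the 5 megakaryocyte markers to between 6.21 and 87.9, highest in cluster 3 and with Gp9 at 0 in cluster 2, and the 7 endothelial markers to between 2.75 and 10.4 in clusters 2 to 7 and to slightly more in cluster 1, led there by Tek (5.31), whereas on the TMM scale cluster 5 was highest (14.1, against 10.9 in cluster 1). The part of any of these cell types in the levels of the 10 genes was not tested.

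Near-identical copies could take or give reads, since the treatment of reads shared between genes is not given in the sources used here. The enolase retrocopy Gm5506 was at RPKM 1.29 to 4.92 in the sorted libraries, highest in cluster 2 as Eno1 was by total count, and the levels of both are uncertain to that extent. Pgk1-rs7, Pgk2, Aldoart1 and Aldoart2 were at no more than 1.08 in any sorted library. The testis paralog Ldhc was at 1.70 to 6.21, highest in cluster 7 and higher still in the input (11.3).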

How the data were processed

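The data comprised 8 RNA-seq libraries of mouse bone marrow, 1 for each of the sorted clusters 1 to 7 and 1 of input cells. The files hold raw counts as the authors deposited them, that is the number of reads on the exons of each Ensembl gene, next to exon positions and lengths. The methods of the study describe trimming and alignment by TopHat2 in Partek Flow to mm9, but the exon positions beside the counts match GRCm38. The counting tool and its use of strand are not given in the sources used here.

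RPKM was computed by the total count and exon length, and with TMM factors (edgeR 4.0.16) or DESeq2 1.42.0 size factors, which were used for scaling only. Genes with RPKM above 2 in a compared library were kept, and fold changes used RPKM + 1 with a threshold of 2-fold. Single levels have exact Poisson and ratios exact binomial 95% intervals. The genes named were the 10 members, common partners (such as Gapdh, Hk2, Epas1 and Bnip3l), the 3 genes with the largest difference and the most abundant gene of each pathway list, the 5 genes closest to 2 profiles, cell type markers and retrocopies. A few further genes were named after their values were seen, namely Aldoc, Pdk3, Pdp1, Plod2, Pfkfb3, Stc2, P4ha2, Hilpda, Fam162a, Ddit4, Ndrg1, Adm, Lox, Flt1, Kdr and Flt4. The members and lists were chosen with earlier results of these data known. Of 191 listed symbols 190 were matched, and Ahsp was not. One further hypoxia-inducible gene was left out of the lists and is not reported here. On simulated counts of 49315 genes, 200 of 200 genes raised 4-fold in 1 library were recovered at the 2-fold threshold. Of the unchanged genes, 16 passed 2-fold in that library and 217 between the highest and the lowest library. The simulated counts had Poisson error only, around 1 profile shared by all libraries. They lacked the differences in composition between the real libraries and any spread between sorts, so that these numbers do not carry over to the real libraries. Alternatives were the other scalings, the total count without mitochondrial, haemoglobin, Lars2, mmu-mir-689-2 and Rn18s-rs5 reads, a pseudocount of 0.1, other filters, a 1.5-fold threshold and the omission of cluster 5. Python 3.11.15, pandas 2.3.3, scipy 1.17.1 and R 4.3.3 were used.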

Additional observations from a re-analysis of the deposited data

How the results depend on the processing

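No paired analysis was possible because no population had a second library. Of 170 alternative values, 118 stayed within 1.5 times the main value or in its order, 52 moved and 0 reversed. These values were counts and median ratios, which cannot change sign, so that the 0 says little about orders that turned. The higher of clusters 2 and 6 did turn with the scaling for Aldoa, Eno1, Pdk1 and Bnip3. For the results that moved, the cause was not tested, except where fewer genes or libraries entered. The number of members highest in cluster 2 fell from 4 to 2 and in cluster 6 rose from 3 to 7 with TMM factors and with DESeq2 size factors, which left 0 for clusters 4 and 7. Those lowest in cluster 5 went from 9 to 4 with DESeq2 size factors. Without mitochondrial, haemoglobin, Lars2, mmu-mir-689-2 and Rn18s-rs5 reads, the dominant reads, the number highest rose to 6 in cluster 2 and fell to 2 in cluster 6, opposite to the other scalings. The number lowest in cluster 5 was then 3, clusters 3 and 7 led for 0 and cluster 5 for 1. Calls against the other 6 libraries were summed over the sorted libraries, so that a member called in 2 libraries counts as 2. Calls more than 2-fold lower, 4 in the main analysis, were 1 with either set of factors, 0 without those reads and 0 without cluster 5. Calls more than 2-fold higher went from 6 to 3 without cluster 5.

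Calls against the input, summed over the 7 sorted libraries, moved too. From 1 higher and 13 lower, they became 19 and 2 with TMM factors, 18 and 2 with DESeq2 size factors, 4 and 6 without the dominant reads and 11 and 22 at 1.5-fold. A pseudocount of 0.1 gave 2 higher and the omission of cluster 5 gave 6 lower. Against the other 6 libraries, 12 calls at 1.5-fold were higher and 10 lower, again summed over the 7 sorted libraries. No share of all genes is given here for any of these summed calls, against the input or against the other 6 libraries. They describe only how the counts of members moved.

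Without cluster 5, 22 member pairs had r above 0.5 in place of 34, and the genes with more than 2-fold difference fell to 9 of the other glycolysis enzymes, 3 of the transporters, 3 of pyruvate entry, 2 of oxygen sensing and 7 of oxidative phosphorylation. TMM factors and DESeq2 size factors both gave 3 for pyruvate entry and 7 for oxidative phosphorylation, and the total without the dominant reads gave 4 for pyruvate entry. At 1.5-fold the counts were 11, 19 and 8 for pyruvate entry, oxidative phosphorylation and oxygen sensing. No share of all genes is given here for the list counts without cluster 5, without the dominant reads or at 1.5-fold. RPKM above 2 in every library left 3 transporters and 3 VEGF genes and removed Egln3 and Pdk1, so that 8 members were left, cluster 3 led for 0 and cluster 2 for 3. On raw counts, without exon length, the median ratio within a library was 0.355 for Bnip3 to Bnip3l, 23.1 for Eno1 to Eno2 and Eno3, 53.0 for Ldha to Ldhb, 0.232 for the Pdk1 share and 2.14 for Slc2a1 to Slc2a3. Depth limits Egln3 most, with 67 counts in cluster 5.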
